A study of Homo sapiens with 4 samples.

Results

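The 10 genes described here encode the p38 mitogen-activated protein kinases and their closest partners in the cascade: the kinases p38β (MAPK11), p38γ (MAPK12), p38δ (MAPK13) and p38α (MAPK14), the upstream kinases MAP2K3, MAP2K4, MAP2K6 and MAP3K5, and the substrate kinases MAPKAPK2 and MAPKAPK3. They were chosen by gene symbol, with the differences between FOXP4 KO and control libraries already known. Their values in that comparison are therefore a description, and nothing is read from which of them passed a test. All 10 were present among the 15218 genes of the count table, and all 10 passed the filter on low counts that left 14620 genes.

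The p38 kinases are switched on by stress and inflammatory signals through a chain in which a MAP3K phosphorylates a MAP2K and the MAP2K phosphorylates p38. MAP2K3 and MAP2K6 act mainly on p38, whereas MAP2K4 acts on both p38 and the related kinase JNK. p38α is the broadly expressed isoform and the usual activator of MAPKAPK2, while p38γ and p38δ are known for expression that varies more between tissues. Because the cascade runs by phosphorylation, transcript levels do not measure its activity.

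RNA sequencing compared 2 FOXP4 KO libraries with 2 control libraries of HEK293T cells, which come from human embryonic kidney and express the SV40 large T antigen. FOXP4 is a transcription factor of the forkhead family. The KO libraries carry a shared name in their titles, which does not say whether it stands for a line. How the KO cells were made is not given in one way. The genotype label gives a knock down, and the study's text names both a CRISPR-Cas9 knockout and an shRNA virus followed by puromycin. The control libraries are of the same cell line and carry no stated change in FOXP4, and no source says that the libraries of a group came from separate cultures, so the errors given here may be technical only.

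FOXP4 itself had 713 and 886 counts in the KO libraries, against 2562 and 2463 in the control libraries. Its log2 fold change was −1.78 (SE 0.185, adjusted p = 0.0038 by edgeR's quasi-likelihood test), so its transcript was reduced and not absent in the libraries labelled KO. Library totals were 41796690 to 42150257 counts in the KO group and 36393224 to 43057305 counts in the control group. Mitochondrially encoded genes took 5.27% and 6.84% of the KO counts and 5.19% and 4.79% of the control counts, and the part of this difference in the results below was not tested. All 6 of 6 markers listed for this cell line were at 1 TPM (a level scaled for transcript length and library size) or more in every library but their levels differed between groups in both directions. VIM was at 245 and 155 TPM in KO and 724 and 909 TPM in control libraries, and NEFM at 133.2 and 139.9 TPM in KO and 50.6 and 16.9 TPM in control libraries. NEFL (mean 56.2 TPM in KO and 46.2 TPM in control), KRT8 (154.8 and 110.3 TPM), KRT18 (94.3 and 98.9 TPM) and PAX2 (1.83 and 3.09 TPM) differed less, and the part of these differences in the results was not tested. Of 8 markers of other cell types, 7 stayed under 1 TPM in every library, at most 0.250 TPM, and the collagen gene COL1A1 was the exception. The summed level of the 8 markers was 7.20 to 11.5 TPM in KO libraries and 5.94 to 7.33 TPM in control libraries, and its part in the results was not tested. With 2 libraries a group, an exact permutation test of a single value cannot go below p = 0.33.

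The p38 genes lie in 2 pairs of neighbours. In GRCh38 with the GENCODE v29 annotation, MAPK14 (chr6:36027677-36111236) and MAPK13 (chr6:36127809-36144524) lie on the forward strand of chromosome 6, 16.6 kb apart. FOXP4 (chr6:41546426-41602384) lies 5.40 Mb beyond MAPK13. MAPK12 (chr22:50245450-50261825) and MAPK11 (chr22:50263713-50270767) lie on the reverse strand of chromosome 22, 1887 bases apart. The other members are at chr17:21284672-21315240 (MAP2K3), chr17:12020824-12143830 (MAP2K4), chr17:69414698-69553861 (MAP2K6), chr6:136557047-136792518 (MAP3K5), chr1:206684944-206734283 (MAPKAPK2) and chr3:50611520-50649297 (MAPKAPK3).

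The promoters of the 4 isoforms are shown because neighbouring genes of one pair differed in opposite directions. Each run is the 250 bases before the RefSeq transcription start (GRCh38.p14), written 5′ to 3′ on the strand of the gene, with matches to the searched motifs in capitals. The windows are chr6:36130263-36130512 (forward) for MAPK13, chr6:36027558-36027807 (forward) for MAPK14, chr22:50261684-50261933 (reverse) for MAPK12 and chr22:50270381-50270630 (reverse) for MAPK11.
MAPK13: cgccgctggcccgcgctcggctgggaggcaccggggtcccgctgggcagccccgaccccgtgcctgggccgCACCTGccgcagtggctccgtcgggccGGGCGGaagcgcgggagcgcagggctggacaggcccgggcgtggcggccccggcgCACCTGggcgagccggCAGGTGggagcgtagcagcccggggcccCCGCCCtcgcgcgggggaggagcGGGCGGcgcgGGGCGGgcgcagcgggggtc
MAPK14: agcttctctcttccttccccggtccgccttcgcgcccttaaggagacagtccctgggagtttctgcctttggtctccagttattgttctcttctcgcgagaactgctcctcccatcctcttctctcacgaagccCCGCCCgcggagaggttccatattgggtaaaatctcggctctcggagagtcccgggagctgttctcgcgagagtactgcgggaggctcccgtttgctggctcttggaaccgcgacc
MAPK12: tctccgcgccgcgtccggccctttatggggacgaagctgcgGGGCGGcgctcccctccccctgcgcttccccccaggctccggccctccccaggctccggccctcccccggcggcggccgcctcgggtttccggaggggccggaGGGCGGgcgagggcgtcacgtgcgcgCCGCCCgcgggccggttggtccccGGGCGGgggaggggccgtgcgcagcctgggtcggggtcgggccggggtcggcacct
MAPK11: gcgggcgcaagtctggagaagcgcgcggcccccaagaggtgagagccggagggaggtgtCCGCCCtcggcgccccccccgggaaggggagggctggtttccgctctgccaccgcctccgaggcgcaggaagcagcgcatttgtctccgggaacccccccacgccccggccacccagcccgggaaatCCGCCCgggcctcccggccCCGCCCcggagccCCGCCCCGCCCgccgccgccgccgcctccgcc

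The capitals in these 4 windows are the E-box CAGGTG and the GC box GGGCGG, each searched on both strands. The E-box stood 3 times in the MAPK13 window, at 179, 97 and 81 bases before the start, and in none of the other member windows. Of all 35116 RefSeq windows of the same length, 17.5% held it at least once and 0.464% at least 3 times. The limit of 3 was the MAPK13 count itself, set after it was seen, so this share is only a description. The GC box was in 11 of 13 member windows, which cover 9 of the 10 genes, against 42.6% of all windows. MAPK13, MAPK14, MAPK12 and MAPK11 had a GC content of 84.4%, 59.2%, 82.0% and 79.2%, and the median of all windows was 58.0%. The motif shares over all windows were not matched for GC content. The forkhead motifs TGTTTAC (2.98% of all windows) and TGTTTAT (3.77%) had no match in these 4 windows, and TGTTTAT matched a MAP2K6 window. Also searched were TGACTCA (4.2% of all windows), TGACGTCA (1.65%) and TATAAA (10.7%), with no match in these 4 windows. TGACTCA matched a MAP2K3 window and TATAAA a MAP2K6 window. A match describes letters in a window, not a bound site, and the lack of one says nothing of FOXP4.

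Among the 10 members, MAPK13 and MAPK12 were higher in FOXP4 KO and MAPK14, MAP2K3 and MAPKAPK2 were lower at an adjusted p under 0.05. This count of 5 stands beside 25.8% of all tested genes, 13.8% higher and 12.1% lower, and nothing is read from it because these values chose the members. Upper-quartile scaling moved the balance of all calls to 2383 higher and 1368 lower genes, against 2013 and 1765. The members had 2 higher and 3 lower there, from which nothing is read for the same reason. In 7 of 10 members the KO and control libraries did not overlap, against 68.7% of all tested genes, with 3 members above control (35.5% of all genes) and 4 below (33.2%). The median log2 fold change was −0.14 over the members and 0.01 over all tested genes. In RNA from a whole culture, fewer cells of a type and less RNA per cell cannot be told apart.

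**Figure D1:**
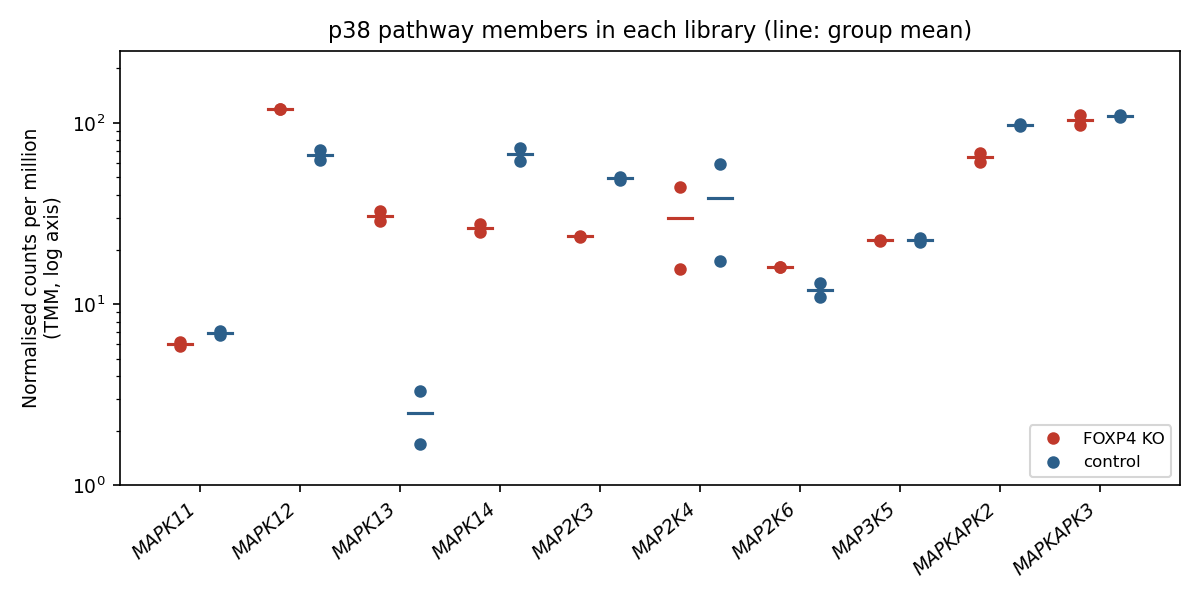
Counts scaled to library size (CPM, log axis) of the 10 members in each library, FOXP4 KO left of control within each gene, with the mean of each group as a line. MAPK13 lies at 32.5 and 28.7 CPM in KO and 1.69 and 3.33 CPM in control, and MAP2K4 is the gene whose libraries within a group lie farthest apart.

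MAPK13 encodes p38δ, the isoform linked to epithelial and secretory tissues. It had 1400 and 1198 counts in the KO libraries, against 60 and 144 counts in the control libraries, or 30.6 ± 2.69 CPM and 2.51 ± 1.16 CPM (SD, n = 2 each). Both KO libraries were far above both control libraries, and the control libraries themselves differed, at 1.69 and 3.33 CPM. The log2 fold change was 3.59 (SE 0.325), a 12.1-fold difference. Leaving out control replicate 1 gave 3.17 and leaving out control replicate 2 gave 4.16. It was 2.64 on the log2(TPM + 1) scale and 3.15 on the log2(TPM + 0.1) scale. A pseudocount understates the change of a low gene, but TPM and counts also differed for MAPK13. The control libraries lay closer together in TPM (1.55 and 1.78) than in CPM. How much each of these lowers the value was not tested.

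MAPK14, the neighbour of MAPK13, encodes p38α. It had 1196 and 1047 counts in KO and 2579 and 2647 counts in control libraries, at 26.4 ± 1.90 CPM and 67.0 ± 8.11 CPM. Both KO libraries lay below both control libraries, and the log2 fold change was −1.34 (SE 0.140), with leave-one-out values from −1.47 to −1.24. The 2 genes of this pair therefore differed from control in opposite directions.

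MAPK12 encodes p38γ, known from skeletal muscle. It had 5144 and 4989 counts in KO and 2224 and 3050 counts in control libraries, or 119.3 ± 0.0642 CPM and 66.7 ± 5.57 CPM. The groups did not overlap, and the log2 fold change was 0.84 (SE 0.115), a 1.79-fold difference. Of its 9424 exonic bases, 2763 (29.3%) are shared with HDAC10 on the same strand, so reads there cannot be assigned to one gene with certainty.

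MAPK11, beside it, encodes p38β. It had 266 and 247 counts in KO and 239 and 306 counts in control libraries, at 6.04 ± 0.183 CPM and 6.91 ± 0.242 CPM. The KO libraries were both slightly lower, and the log2 fold change of −0.20 (SE 0.187) was about the size of its error.

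The mix of p38 transcripts was compared on TPM, where levels of different genes can be set side by side. The numbers on the KO columns of the TPM table were not matched to replicates, so they are given as a group. Summed over the 4 isoforms, the level was 171.9 and 167.0 TPM in KO and 118.5 and 125.2 TPM in control libraries. MAPK12 held most of it in both groups, 78.3% ± 0.657 in KO and 63.7% ± 3.77 in control (SD, n = 2 each). The overlap of its exons with HDAC10 (29.3% of its exonic bases) makes its level, the sum and all 4 shares uncertain. MAPK14 held 9.58% ± 0.373 in KO and 30.2% ± 3.95 in control. MAPK13 held 9.22% ± 0.983 in KO and 1.36% ± 0.0829 in control, and MAPK11 2.92% ± 0.0471 and 4.77% ± 0.0979. In KO libraries MAPK14 (16.0 and 16.4 TPM) and MAPK13 (17.0 and 14.2 TPM) thus overlapped in level, whereas in control libraries MAPK14 (39.1 and 34.3 TPM) stood far above MAPK13 (1.55 and 1.78 TPM).

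**Figure D2:**
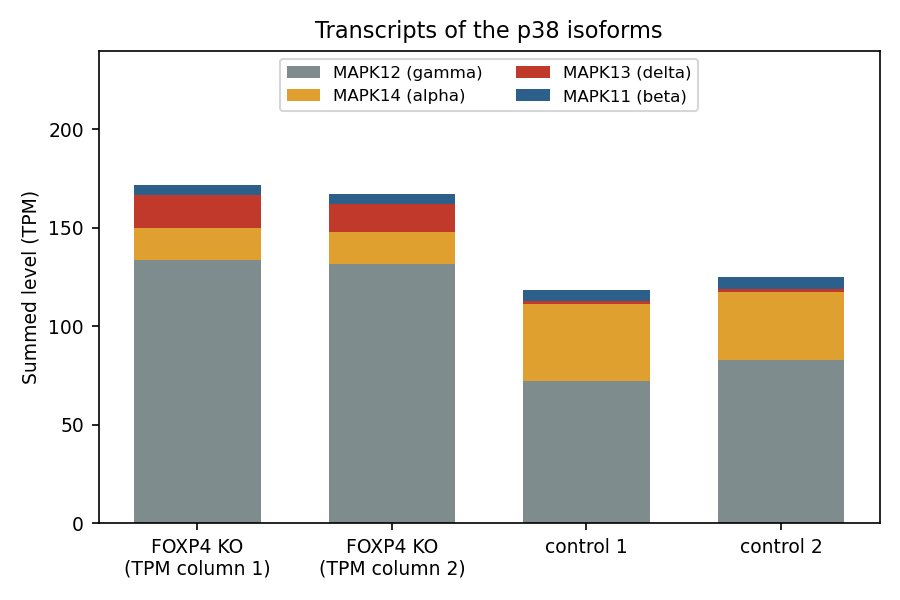
Stacked TPM of the 4 p38 isoforms in each library, FOXP4 KO left of control, with the height of each segment as the level of 1 isoform. MAPK12 is the largest segment in every library, and MAPK13 and MAPK14 are of like height in KO, whereas MAPK13 is a thin band in control.

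Upstream, MAP2K3, a kinase that activates p38, had 1017 and 993 counts in KO and 1785 and 2102 counts in control libraries. At 23.7 ± 0.125 CPM and 49.5 ± 1.20 CPM the groups did not overlap, with a log2 fold change of −1.06 (SE 0.120). MAP2K6, the other p38-directed kinase, had 687 and 668 counts in KO and 387 and 566 counts in control libraries, at 15.9 and 16.0 CPM against 10.9 and 13.1 CPM. Its groups did not overlap, and the log2 fold change was 0.41 (SE 0.171). On TPM, MAP2K3 was the more abundant of this pair in every library, at 22.2 and 20.6 TPM against 11.8 and 12.6 TPM for MAP2K6 in KO, and at 45.0 and 46.3 TPM against 7.75 and 9.95 TPM in control.

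MAP2K4, which activates both p38 and JNK, split the replicates of each group. It had 672 and 1851 counts in KO and 2100 and 747 counts in control libraries, or 15.6 and 44.3 CPM against 59.2 and 17.3 CPM. KO replicate 1 and control replicate 2 were low, KO replicate 2 and control replicate 1 were high, and the groups overlapped. Its replicate difference was larger than that of 98.9% of tested genes in KO and 99.0% in control. The log2 fold change of −0.35 (SE 0.650) turned positive without control replicate 1 (0.76) or KO replicate 1 (0.21) and was −1.29 without KO replicate 2. No direction is given for this gene.

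**Figure D3:**
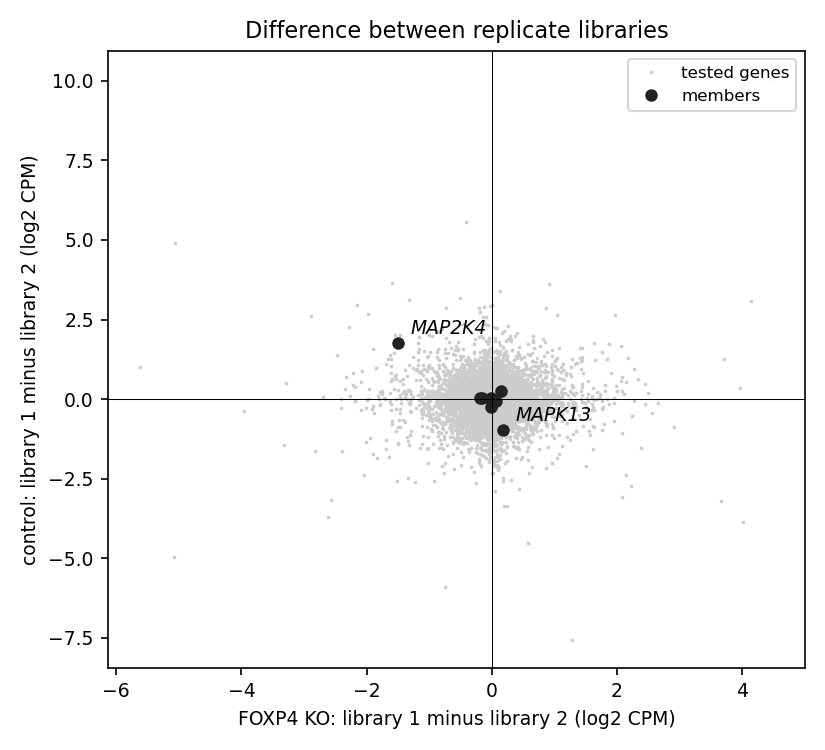
Difference between the 2 libraries of each group (log2 CPM, library 1 minus library 2) for all tested genes (grey) and the members (black), with FOXP4 KO on the horizontal axis and control on the vertical axis. MAP2K4 lies at −1.50 in KO and 1.77 in control, and MAPK13 at 0.18 in KO and −0.96 in control.

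MAP3K5 encodes ASK1, the kinase that responds to oxidative stress and acts above MAP2K3, MAP2K4 and MAP2K6. It had 980 and 933 counts in KO and 785 and 1003 counts in control libraries. At 22.7 and 22.3 CPM against 22.1 and 23.2 CPM the groups overlapped, with a log2 fold change of −0.01 (SE 0.137).

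Downstream, MAPKAPK2 (MK2) phosphorylates HSP27 and proteins that bind AU-rich mRNAs. It had 2637 and 2847 counts in KO and 3508 and 4154 counts in control libraries, at 64.6 ± 4.93 CPM and 97.6 ± 1.97 CPM. Its log2 fold change was −0.59 (SE 0.114), a control level 1.51 times that of KO. It was −0.52 without KO replicate 1 and −0.67 without KO replicate 2. In neither of these fits did it pass the threshold, from which nothing is read. MAPKAPK3, a close relative of MAPKAPK2, had 4198 and 4628 counts in KO and 3942 and 4661 counts in control libraries, with a log2 fold change of −0.07 (SE 0.116) and overlapping groups. It shares 218 of 3921 exonic bases (5.56%) with CISH on the opposite strand, and whether counting used strand is not stated.

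By TPM level the members ran from MAPK12 (mean 132.6 TPM) through MAPKAPK3 (87.0 TPM), MAPKAPK2 (44.0 TPM), MAP2K3 (21.4 TPM), MAP2K4 (17.5 TPM), MAPK14 (16.2 TPM), MAPK13 (15.6 TPM), MAP2K6 (12.2 TPM) and MAP3K5 (8.68 TPM) to MAPK11 (4.96 TPM) in KO. The neighbouring pairs from MAP2K3 to MAPK13 in this order overlapped in their libraries. In control the order was MAPKAPK3 (93.8 TPM), MAPK12 (77.7 TPM), MAPKAPK2 (67.8 TPM), MAP2K3 (45.6 TPM), MAPK14 (36.7 TPM), MAP2K4 (23.0 TPM), MAP3K5 (8.95 TPM), MAP2K6 (8.85 TPM), MAPK11 (5.82 TPM) and MAPK13 (1.66 TPM). There, MAPK14 overlapped with MAP2K4 and MAP3K5 with MAP2K6.

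The rest of the pathway was taken from a list of 93 genes by role, written from textbook knowledge of the pathway. Earlier results of these data were known when it was made, which limits what its counts can show. Of the 93 genes, 86 were tested. Of these, 6 were higher and 18 lower in FOXP4 KO by edgeR's quasi-likelihood test, 27.9% against the 25.8% of all genes, with a median log2 fold change of −0.03. The share in either direction is near that of all genes. By direction, 6 of 86 were higher, beside 13.8% of all genes, and 18 of 86 were lower, beside 12.1%. This tilt toward lower genes was not tested. The count moved with the library left out, at 2 higher and 5 lower without KO replicate 1, 2 higher and 8 lower without KO replicate 2, 4 higher and 11 lower without control replicate 1 and 6 higher and 18 lower without control replicate 2. The counts over all genes also dropped, to 641 higher and 467 lower without KO replicate 1, 639 and 659 without KO replicate 2 and 1195 and 1071 without control replicate 1.

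**Figure D4:**
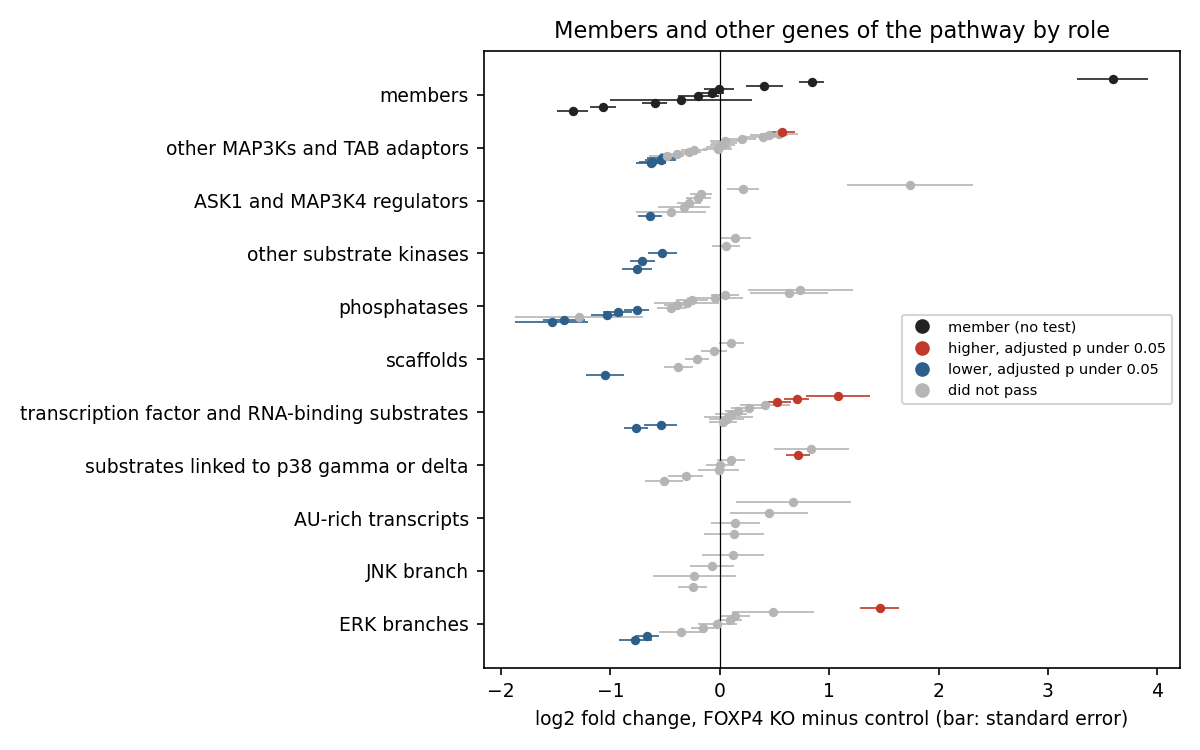
Log2 fold change, FOXP4 KO minus control, of the members and of the other tested pathway genes, grouped by role, with standard errors as bars, members in black and other genes that passed the edgeR threshold in colour. The phosphatases and the other substrate kinases hold 5 and 3 lower genes and 0 higher ones. Over all tested genes 13.8% were higher and 12.1% lower.

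Of the phosphatases that remove activating phosphates from p38 and its relatives, 5 of 14 tested fell and 0 rose, with a median log2 fold change of −0.42. The share that passed was 35.7%, all lower, against 25.8% of all tested genes, 12.1% lower. At an unadjusted p under 0.05 in edgeR, 7 were lower and 0 higher. The share of all tested genes at that unadjusted threshold is not given here, so nothing is read from this count. DUSP8 had 6.77 and 7.58 CPM in KO and 21.5 and 16.9 CPM in control libraries (log2 fold change −1.42, SE 0.194, adjusted p = 0.0068 by edgeR). DUSP1, an early-response phosphatase of p38 and JNK, had 15.0 and 17.2 CPM in KO and 34.4 and 31.3 CPM in control (−1.03, adjusted p = 0.0079 by edgeR). DUSP9 (−0.93), DUSP16 (−0.76) and DUSP5 (−1.54) also fell, and DUSP5, which acts mainly on ERK, was named after its value was seen. DUSP8, DUSP9 and DUSP1 passed with any library left out. DUSP16 did not pass without KO replicate 2 (−0.71), nor DUSP5 without control replicate 1 (−1.29) or KO replicate 2 (−1.20).

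Among 5 other substrate kinases, 3 fell, with a median of −0.53. The share that passed was 60%, all lower, against 25.8% of all tested genes, 12.1% lower. MKNK2, which phosphorylates the cap-binding factor eIF4E, had 56.0 and 57.4 CPM in KO and 88.0 and 97.7 CPM in control libraries (−0.71, adjusted p = 0.0097 by edgeR). RPS6KA4 (MSK2), a kinase of histone H3 and CREB1, had 22.5 and 26.1 CPM in KO and 40.8 and 41.3 CPM in control (−0.75, adjusted p = 0.013 by edgeR). MKNK1 fell less (−0.53), whereas RPS6KA5 (MSK1), the relative of RPS6KA4, was at 0.14 and did not pass. None of these 3 calls held without KO replicate 1, MKNK2 and MKNK1 also did not pass without KO replicate 2, and MKNK1 also did not pass without control replicate 1 or with upper-quartile scaling.

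Of 18 other MAP3Ks and TAB adaptors, 1 rose and 4 fell, with a median of −0.01. The share that passed was 27.8%, near the 25.8% of all tested genes. TAB1, an adaptor that can bind p38α directly, had 137 and 161 CPM in KO and 96.7 and 104 CPM in control (0.57, SE 0.126, adjusted p = 0.024 by edgeR). MAP3K3 (−0.62), MAP3K9 (−0.63), TAOK2 (−0.53) and TAOK3 (−0.54, named after its value was seen) fell. Each of these 5 calls was lost in at least 3 of the 4 fits that left out 1 library, and that of TAOK3 also with upper-quartile scaling and on TPM. Of the 8 regulators of ASK1 and MAP3K4, 1 passed (12.5%, against 25.8% of all tested genes). TRAF2 fell, at 37.2 and 36.8 CPM in KO and 56.6 and 58.4 CPM in control (−0.64, adjusted p = 0.012 by edgeR). Its fold change stayed near this without KO replicate 1 (−0.65) or KO replicate 2 (−0.63), but the call was lost (adjusted p = 0.072 and 0.075 by edgeR). GADD45G had 27 and 25 counts in KO and 10 and 4 counts in control, and did not pass (adjusted p = 0.071 by edgeR).

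Of 12 transcription factor and RNA-binding substrates, 3 rose and 2 fell. The share that passed was 41.7%, against 25.8% of all tested genes, 13.8% higher and 12.1% lower. HSPB1, the small heat shock protein HSP27, had 84.0 and 92.6 CPM in KO and 52.8 and 55.5 CPM in control libraries (0.70, SE 0.115, adjusted p = 0.010 by edgeR). ZFP36, which encodes tristetraprolin and promotes decay of AU-rich mRNAs, had 4.38 and 5.05 CPM in KO and 2.74 and 1.74 CPM in control (1.08, SE 0.290, adjusted p = 0.040 by edgeR). ELK1, a factor of the serum response, had 54.7 and 58.5 CPM in KO and 97.7 and 94.6 CPM in control (−0.76, adjusted p = 0.0075 by edgeR). ELK4 rose in counts (0.53) but not on TPM (0.24 on log2(TPM + 1)), and CREB1 fell in counts (−0.54, named after its value was seen) but not on TPM (−0.16). Both lost their call with any library left out, HSPB1 without KO replicate 2, ELK1 without KO replicate 1, and ZFP36 without control replicate 2 or either KO replicate.

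Of 7 substrates linked to p38γ or p38δ, 1 passed (14.3%, against 25.8% of all tested genes). STMN1, which encodes the microtubule regulator stathmin, rose, with 186 and 180 CPM in KO and 106 and 117 CPM in control (0.72, adjusted p = 0.0090 by edgeR). Without KO replicate 1 its fold change was 0.69 and the call was narrowly lost (adjusted p = 0.052 by edgeR). MAPT, the tau gene, had 23.7 and 25.9 CPM in KO and 8.77 and 18.9 CPM in control and did not pass (0.84, adjusted p = 0.12 by edgeR). It passed without control replicate 2 (1.49), whose value was the higher of the control libraries, and on log2(TPM + 1) (0.94). Of 5 scaffolds, 1 passed (20%, against 25.8% of all tested genes). MAPK8IP1 (JIP1) fell, with 23.2 and 28.0 CPM in KO and 59.4 and 46.6 CPM in control (−1.05, adjusted p = 0.010 by edgeR). Without KO replicate 1 its fold change was −0.92 and the call was lost (adjusted p = 0.056 by edgeR).

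AU-rich transcripts are known for a stability that depends on MK2. Of 10 listed, 4 were tested (CXCL2, PTGS2, IER3 and PLAUR), and 0 passed with edgeR, with log2 fold changes of 0.13 to 0.67. In the JNK branch 0 of 4 passed with edgeR, where 25.8% of all tested genes passed. In both lists 0 genes had an unadjusted p under 0.05 in edgeR, and 0 passed with DESeq2. The share of all genes at that unadjusted threshold is not given here. The JNK branch log2 fold changes were −0.25 for MAP2K7, 0.12 for MAPK8, −0.07 for MAPK9 and −0.23 for MAPK10. In the ERK branches 1 of 9 rose and 2 fell, 33.3% against 25.8% of all tested genes. MAPK15, an atypical ERK, rose, with 15.3 and 16.0 CPM in KO and 5.25 and 6.11 CPM in control (1.46, SE 0.180, adjusted p = 0.0055 by edgeR). MAP2K2 (−0.67) and MAPK7, which encodes ERK5 (−0.77), fell. The call of MAP2K2 was lost without KO replicate 1 (−0.61) and that of MAPK7 without KO replicate 1 (−0.72) or KO replicate 2 (−0.83), with fold changes of about the same size.

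The genes around each p38 pair show whether the members differ alongside their neighbours, taken as the 5 tested genes on each side. Around MAPK13 and MAPK14, 0 of 10 rose and 2 fell with edgeR by adjusted p, against 13.8% higher and 12.1% lower over all tested genes. The counts were the same at an unadjusted p under 0.05, for which no share over all genes is given here. BRPF3, the nearest tested gene beyond MAPK13, encodes a subunit of a histone acetyltransferase complex. It had 28.9 and 44.6 CPM in KO and 86.9 and 70.7 CPM in control (−1.10, SE 0.224, adjusted p = 0.018 by edgeR). Its call was lost without KO replicate 1 (−0.82), without control replicate 1 (−0.97) and on TPM. PNPLA1 had only 4 and 2 counts in KO and 13 and 24 counts in control, and lost its call with DESeq2 and with any library left out. The nearest tested gene on the other side of MAPK14, SRPK1, was at −0.25 (adjusted p = 0.17 by edgeR).

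Around MAPK11 and MAPK12, 6 of 10 rose and 1 fell, against 13.8% higher and 12.1% lower over all tested genes, with a median log2 fold change of 0.46 against 0.01. Over both loci, 2 neighbours were higher without KO replicate 1 and 1 without KO replicate 2, against 6 in the fit with all libraries. DENND6B, which encodes a guanine nucleotide exchange factor for Rab proteins, had 18.3 and 19.1 CPM in KO and 2.45 and 2.92 CPM in control (2.79, SE 0.192, adjusted p = 0.0015 by edgeR). TRABD (0.73), SELENOO (0.75), TUBGCP6 (0.45), HDAC10 (0.52) and PPP6R2 (0.40) also rose, and the exonic overlap of HDAC10 with MAPK12 makes its value uncertain. ADM2, an adrenomedullin-related peptide, had 2 and 4 counts in KO and 91 and 517 counts in control (−6.63, SE 0.989, adjusted p = 0.0081 by edgeR). PLXNB2, next to MAPK11, was at 0.09 and did not pass. DENND6B and ADM2 kept their calls with any library left out, TRABD lost its call without KO replicate 2, and the other 4 lost theirs without either KO replicate. Without control replicate 2, HDAC10 also lost its call, and without each control replicate so did TUBGCP6 and PPP6R2, the second also on TPM and with the replicate block.

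**Figure D5:**
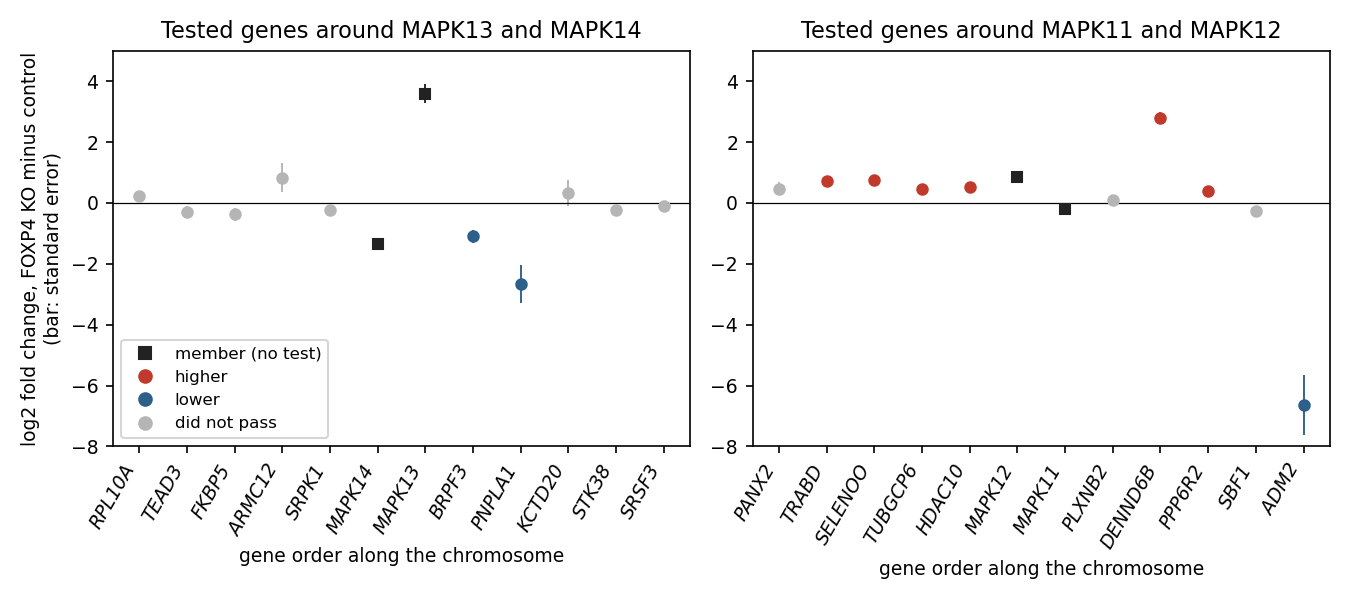
Log2 fold change, FOXP4 KO minus control, of the tested genes around each p38 pair in gene order, with standard errors. MAPK13 stands at 3.59 beside MAPK14 at −1.34, and around MAPK12 (0.84) 6 of 10 neighbours rose, among them DENND6B at 2.79.

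Among genes with a mean log2 CPM of at least 3, the 5 whose profile over the 4 libraries was closest to that of MAPK13 were SPINT2, ERBB3, TSC22D3, ZNF595 and MAL2, by Euclidean distance of centred log2 CPM (0.24 to 1.01). SPINT2, a protease inhibitor of epithelia, had 145.9 and 132.1 CPM in KO and 6.43 and 14.0 CPM in control, and like MAPK13 was lower in control replicate 1 than in control replicate 2. ERBB3, a receptor tyrosine kinase, had 51.9 and 55.1 CPM in KO and 3.89 and 6.44 CPM in control. TSC22D3, a glucocorticoid-induced leucine zipper protein, had 2181 and 2525 CPM in KO and 91.2 and 174.0 CPM in control. These genes were ranked by likeness, so their values are a description.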

How the data were processed

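The 4 libraries of HEK293T cells comprised 2 FOXP4 KO and 2 control. The authors deposited raw counts per gene and a separate TPM table (column totals 999930.2 to 999944.4). Neither aligner, counter nor use of strand is stated in the sources used here. Mouse builds (GRCm38, mm10) appear among the submitters' processing notes, whereas the identifiers are human. The quasi-likelihood test of edgeR 4.0.16 (R 4.3.3) was run on the counts after filterByExpr and TMM scaling, with p-values adjusted by Benjamini and Hochberg over 14620 genes and a threshold of 0.05. The prior degrees of freedom were 4.30. Levels were compared between genes on TPM. Members and lists were chosen with earlier results of these data known, so members are given no p-value and nothing is read from their calls. Named were FOXP4, the members, up to 4 genes of lowest p in each role, the neighbours that passed and the 5 genes most like MAPK13, with exceptions named in the text. Positions came from GENCODE v29 and promoter windows from RefSeq, with MAPKAPK2 not matched. MAPK13 starts upstream of its RefSeq start in GENCODE. Alternatives were DESeq2 1.42.0, limma 3.58.1 (limma-voom, and limma-trend on log2 TPM with a pseudocount of 1 or 0.1), other scalings and filters, the replicate block and each library left out.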

Additional observations from a re-analysis of the deposited data

Results flagged for a closer look

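A pair of listed AU-rich transcripts that the count table does not hold had more TPM in both KO columns than in both control columns. CXCL1, a chemokine, averaged 0.787 TPM in KO (0.768 and 0.806 TPM) and was listed at 0 and 0.522 TPM in control libraries. TNF averaged 0.156 TPM in KO (0.150 and 0.162 TPM) and was listed at 0 in both control libraries. The other listed AU-rich transcripts outside the count table did not share this: IL1B had 0 and 0.010 TPM in KO and 0.046 and 0.032 TPM in control libraries, and IL6 and CSF2 were listed at 0 in every library. These levels are low, the depth behind them is unknown, and no test was made.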

How the results depend on the processing

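The members had 2 higher and 3 lower genes under DESeq2, limma-voom, 3 other scalings, 2 other filters, both TPM fits and the replicate block. Because these values chose the members, this is a description and lends their calls no support. Leaving out a library moved the pathway counts to 2 to 6 higher and 5 to 18 lower, the counts over all genes to 639 to 2013 higher and 467 to 1614 lower, and the neighbouring genes to 1 to 4 higher and 1 to 2 lower. The neighbouring genes had 1 lower call on log2(TPM + 1) and 1 on log2(TPM + 0.1), against 3. Shares of summed CPM, which are not corrected for length, gave differences of −1.52 points for MAPK11, 18.9 for MAPK12, 15.0 for MAPK13 and −32.3 for MAPK14, against −1.85, 14.6, 7.85 and −20.6 on TPM; with a library left out the TPM values ran from −1.92 to −1.78, 11.9 to 17.3, 7.16 to 8.55 and −23.4 to −17.8. The libraries showed no shared effect of replicate number across genes (correlation of deviations −0.0026), which cannot show whether they were paired by design. With the number as a block the pathway had 7 higher and 17 lower genes and all genes 1981 and 1637, and MAPT passed (0.93) while CREB1 (−0.54) and PPP6R2 (0.40) no longer passed; it changed no other call among the named genes. Of 53 other named genes, 17 of 519 results under other settings and 65 of 212 with a library left out no longer passed, 5 and 2 newly passed, and 0 reversed while passing. Of the members, MAP2K4, MAP3K5 and MAPKAPK3 changed sign with a library left out, and no direction is read for them. With 2 libraries a group, a difference about the size of its error, such as that of MAPK11 (−0.20, SE 0.187), could not be resolved. Nothing is read from that of MAP2K6 (0.41, SE 0.171).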

Other observations

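The replicate pattern of MAP2K4, with KO replicate 2 above KO replicate 1 and control replicate 1 above control replicate 2, each by over 1 on the log2 scale, was shared by 34 of 14620 tested genes. The opposite pattern was shown by 18 genes, and the patterns in which both groups had the same replicate higher by 29 and 31 genes. Among the 34, IER2, an early-response gene, had 643 and 1732 counts in KO and 1608 and 486 counts in control libraries, and RAB8B, a small GTPase of membrane traffic, had 165 and 785 counts in KO and 714 and 181 counts in control. Both were named after their values were seen, and no test was made.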
